A study of Mus musculus with 8 samples.

Results

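Polycomb repressive complex genes encode the subunits of 2 multiprotein complexes that keep developmental genes silent. The 9 genes described here are the rows of the gene table whose symbol is Ezh1, Ezh2, Eed, Suz12, Jarid2, Bmi1, Ring1, Rnf2 or Cbx7, out of 22274 genes in all. Each symbol matched 1 row, and all 9 passed the filter on low counts. The data were RNA sequencing read counts of RFB cells, a mouse kidney line labelled as fibroblast. Of 8 libraries, 4 came from cells given TGF-β, a cytokine that drives matrix production, and 4 from cells given TGF-β together with chaetocin. Chaetocin is a fungal metabolite used to inhibit the histone H3 lysine methyltransferases of the SUV39 family, and it also acts on redox enzymes. Every library thus carried TGF-β, and no cells without it were analysed here. The labels state neither dose, time nor passage and do not say whether each library is a culture of its own. The p-values therefore reflect only the spread between these libraries, which may be technical. The design text of the series also speaks of SUV39H1 knockdown cells, which no sample label mentions.

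As background, PRC2 places methyl groups on a lysine of histone H3 through its catalytic subunit EZH2 or EZH1, which works only when bound to EED and SUZ12. JARID2 is an accessory subunit that helps to bring PRC2 to chromatin. PRC1 attaches ubiquitin to histone H2A through RNF2 (also called RING1B) or RING1, paired with a PCGF protein such as BMI1, and in its canonical form it reads the PRC2 mark through a CBX protein such as CBX7. EZH2 is typical of dividing cells and EZH1 of resting ones. In fibroblasts the complexes are best known for repressing the cell cycle inhibitor locus Cdkn2a, which restrains senescence.

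Total counts were 20135312 to 23664084 in the libraries with TGF-β alone. Replicate 1 of the chaetocin group had 22591935, and its other replicates had 14421225 to 15084876. The fibroblast label was checked against 10 fibroblast and 10 epithelial marker genes, and both sets were mixed. CPM, the unit used, scales read counts to library size, here with the TMM method. With TGF-β alone the mesenchymal genes Vim and Col1a1 stood at 1163 ± 30.2 and 232.9 ± 10.6 CPM (SD, n = 4), but Dcn and Lum, which define many fibroblasts, had 11 counts and 1 count over the 4 libraries together. The general epithelial genes Krt8, Krt18, Cdh1 and Epcam stood at 1582 ± 29.6, 812.4 ± 18.4, 650.5 ± 8.10 and 285.3 ± 7.44 CPM. The tubule marker Lrp2 stood at 67.7 ± 2.35 CPM. The other tubule segment markers of that set were near or at 0, with Umod at 0.589 and Slc12a1 at 0.253 CPM. Slc34a1 and Slc12a3 were below these, and Aqp2 was at 0 counts. The leukocyte gene Ptprc stood at 20.5 ± 0.643 CPM. The cells are called RFB cells below.

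The marker sets also shifted with chaetocin, and not all members of a set moved one way. Summed CPM of the 10 fibroblast markers was 1431 to 1517 with TGF-β and 505 to 647 with chaetocin. Vim, at 442.1 CPM with chaetocin, and Col1a1, at 58.1 CPM, made up most of that fall; 5 of the set were called lower, 2 (Dcn and Fap) higher, Pdgfra and Thy1 were not called, and Lum was not tested. The 10 epithelial markers summed to 3346 to 3463 and 6286 to 6526 CPM. Krt8, at 3615 CPM with chaetocin, and Krt18, at 1783 CPM, made up nearly all of that rise. Slc12a1 had the largest fold change of the set, from 0.253 to 9.30 CPM (log2 fold change 5.18). With 4 to 6 counts per TGF-β library, Slc12a1 passed the count filter only through the chaetocin libraries, as did Dcn with 1 to 4. For both genes only a rise could thus be called. Epcam had a log2 fold change of 0.08, Cdh1 of -0.07 and Lrp2 of -0.68. Of 7 tested epithelial markers, 4 were called higher, 2 lower and 1 was not called. The 8 macrophage markers summed to 219 to 237 and 165 to 190 CPM, with 4 called lower and 3 (Ptprc, Cd68 and Itgam) higher. The 6 endothelial markers summed to 52.9 to 59.3 and 85.1 to 92.5 CPM, with 4 called higher and Emcn lower. Over all tested genes 42.0% were called higher with chaetocin and 38.8% lower. The part of these marker shifts in the results below was not tested.

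Sequences before the start sites of 5 of the genes are shown because they form the pairs of paralogs that moved apart, Ezh2 with Ezh1 and Rnf2 with Ring1, and the gene that rose most, Cbx7. Each is the stretch before the RefSeq start site that holds no annotated exon, on GRCm38, printed 5′ to 3′ in the direction of the gene. Capitals mark matches to the motifs named after them.
Ezh2 (chr6:47595059-47595183, minus strand): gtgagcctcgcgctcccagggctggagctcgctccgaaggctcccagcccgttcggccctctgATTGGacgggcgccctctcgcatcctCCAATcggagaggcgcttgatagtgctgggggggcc
Ezh1 (chr11:101226464-101226713, minus strand): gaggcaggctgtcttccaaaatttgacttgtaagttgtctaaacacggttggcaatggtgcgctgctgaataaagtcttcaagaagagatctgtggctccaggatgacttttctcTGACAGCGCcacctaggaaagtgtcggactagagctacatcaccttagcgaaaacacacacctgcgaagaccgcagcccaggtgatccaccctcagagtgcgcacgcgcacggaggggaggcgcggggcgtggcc
Rnf2 (chr1:151500992-151501241, minus strand): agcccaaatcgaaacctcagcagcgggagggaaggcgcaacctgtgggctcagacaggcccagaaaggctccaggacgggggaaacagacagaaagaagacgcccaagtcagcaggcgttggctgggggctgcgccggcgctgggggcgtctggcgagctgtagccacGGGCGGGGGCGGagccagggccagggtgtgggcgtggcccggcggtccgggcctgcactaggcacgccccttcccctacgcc
Ring1 (chr17:34024681-34024930, minus strand): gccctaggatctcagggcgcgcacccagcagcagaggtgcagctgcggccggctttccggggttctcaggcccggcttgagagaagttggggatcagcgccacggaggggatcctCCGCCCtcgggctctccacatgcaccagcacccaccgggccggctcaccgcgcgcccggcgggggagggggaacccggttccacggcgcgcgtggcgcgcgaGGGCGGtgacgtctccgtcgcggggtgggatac
Cbx7 (chr15:79932769-79932896, minus strand): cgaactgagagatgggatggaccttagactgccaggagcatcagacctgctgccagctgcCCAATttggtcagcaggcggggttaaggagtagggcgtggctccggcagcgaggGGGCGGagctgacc

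All 9 symbols were found in the RefSeq promoter table (GRCm38.p6), with 10 windows of 250 bases before a start site, since Jarid2 has 2. Their GC content was 54.4% to 73.6%, where the median of 32851 such windows of the genome was 52.4%, and they held 12 to 37 CG dinucleotides each, where the median was 6. The GC box GGGCGG was present on either strand in 7 of the 10 windows (Bmi1, Cbx7, both of Jarid2, Ring1, Rnf2 and Suz12) and in 32.7% of all windows. The CCAAT box was present in 4 (Cbx7, Ezh2, 1 of Jarid2 and Suz12) and in 33.8% of all. Ezh2 held 3 such boxes, of which 2 lie in the printed stretch, once as CCAAT and once as ATTGG. The core of the antioxidant response element, TGACNNNGC, was present in Bmi1, Ezh1 and Ezh2 and in 10.2% of all windows. In Bmi1 it overlaps by 2 bases with the only E-box CACGTG of the set, a motif found in 6.02% of all windows. The E2F-type core TTTNNCGC was present in Suz12 alone, as TTTCCCGC, and in 4.28% of all windows. TATAAA was present in 1 window of Jarid2 and in 12.4% of all. CCGGAAG (6.91% of all) and AAGATGGC (1.56% of all) had no match in the 10 windows. Both strands were searched for all 8 motifs, and a match describes letters only.

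Of the 9 genes, 4 rose and 4 fell with chaetocin and 1 was not called. Cbx7, Ezh2, Eed and Jarid2 rose, Rnf2, Bmi1, Ezh1 and Suz12 fell, and Ring1 did not pass the test. The rises and falls thus ran across both complexes. A call is an adjusted p under 0.05 in the quasi-likelihood F test of edgeR, with Benjamini-Hochberg adjustment over 14608 tested genes. Of all tested genes 80.7% were called, 42.0% as higher and 38.8% as lower, so 8 called of 9 is close to the background share. The CPM groups did not overlap for 8 of the 9 genes, and for 74.7% of all tested genes. On FPKM, the length-corrected unit of the authors, they did not overlap for 7 of the 9, Bmi1 and Ring1 being the exceptions, and for 70.5% of 12271 genes. With libraries scaled by total count, 49.2% of all genes were called higher and 30.9% lower, and the 9 genes still split into 4 and 4. In bulk RNA, fewer cells of a type and less RNA per cell cannot be told apart. The sizes were also ordinary for these libraries, with a median absolute log2 fold change of 0.35 for the 9 genes and 0.45 for all tested genes. Changes at least as large as that of Cbx7 were found in 24.3% of tested genes, and for Rnf2 this share was 29.8%.

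**Figure D1:**
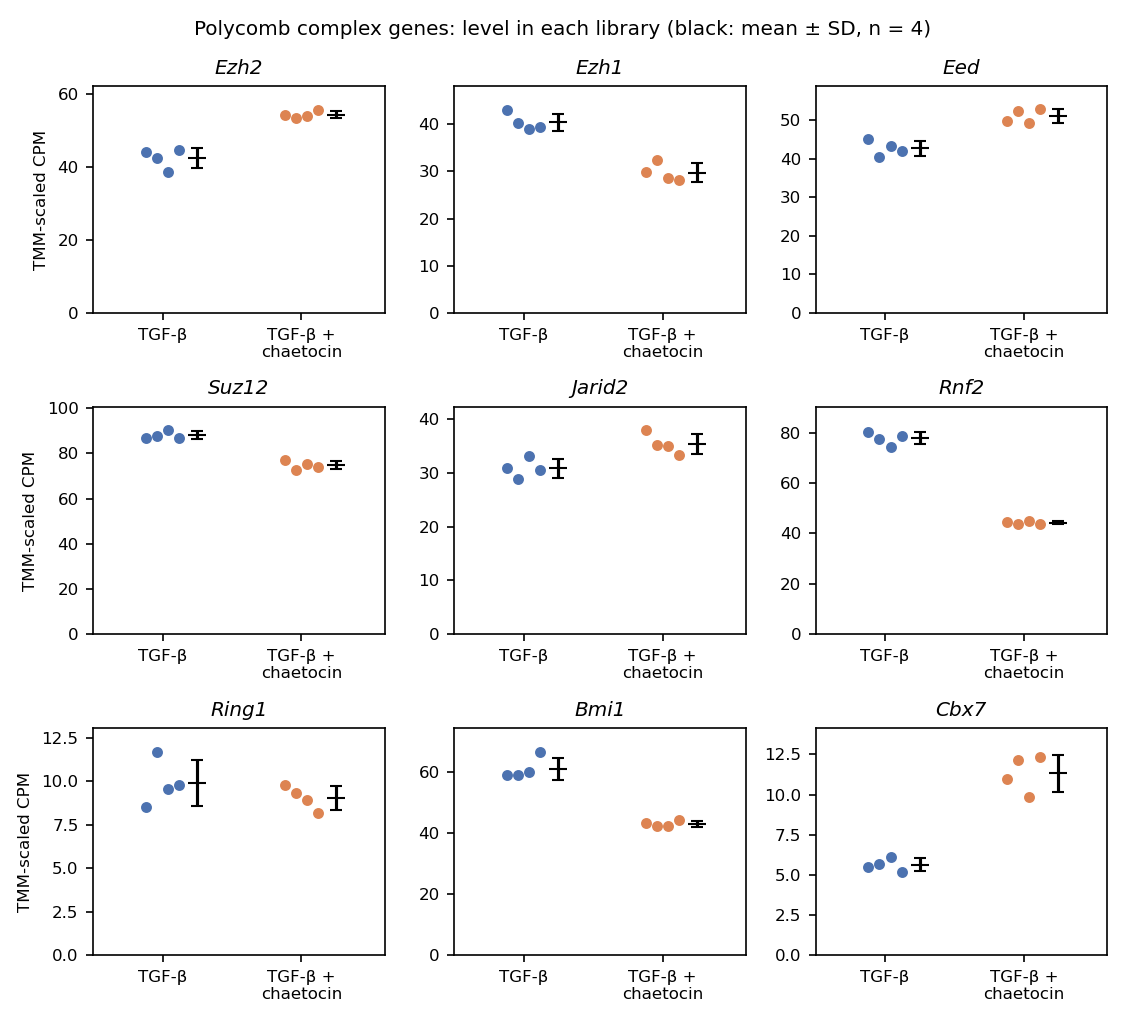
TMM-scaled CPM of each of the 9 genes (vertical axis, from 0) in the 4 libraries with TGF-β (blue) and the 4 with TGF-β and chaetocin (orange); the black mark and bars are the mean ± SD. The 4 libraries of each group are separate in every panel except that of Ring1, with the widest gaps for Rnf2, at 77.7 against 44.1 CPM, and Cbx7, at 5.61 against 11.3 CPM.

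Ezh2, the main catalytic subunit of PRC2, stood at 44.2, 42.5, 38.7 and 44.7 CPM in replicates 1 to 4 with TGF-β alone and at 54.3, 53.5, 54.0 and 55.8 CPM with chaetocin. Every chaetocin library was above every TGF-β library. The log2 fold change was 0.35 ± 0.04 (SE; edgeR adjusted p = 5.9e-08), a rise of 27.7%. Ezh1, the alternative catalytic subunit, stood at 42.9, 40.2, 38.9 and 39.4 CPM with TGF-β and at 29.9, 32.4, 28.5 and 28.1 CPM with chaetocin. It moved the other way without overlap, by a log2 fold change of -0.44 ± 0.05 (SE; edgeR adjusted p = 1.4e-08), and fell by 26.2%. Its log2 fold change was -0.29 by limma on log2(FPKM + 1).

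The change in the balance of the paralogs can be read inside each library, where a ratio of 2 counts does not depend on how libraries are scaled. Ezh2 had 1.03, 1.06, 0.996 and 1.14 counts per count of Ezh1 in the TGF-β libraries and 1.81, 1.65, 1.89 and 1.98 with chaetocin. The ratio rose 1.74-fold (exact two-sided permutation test on log2 ratios, p = 0.0286, adjusted p = 0.0333 over 7 pairs), and 0.0286 is the smallest p that 4 against 4 libraries allow. Per length, by the FPKM values of the authors, Ezh2 stood at 1.85 ± 0.0791 times the level of Ezh1 with TGF-β and 3.31 ± 0.277 times with chaetocin (SD, n = 4).

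Eed encodes the subunit that binds the methylated histone tail and stimulates the enzyme. It stood at 45.2, 40.6, 43.3 and 42.0 CPM with TGF-β and at 49.9, 52.5, 49.3 and 52.9 CPM with chaetocin. These groups did not overlap, and the log2 fold change was 0.25 ± 0.04 (SE; edgeR adjusted p = 7.5e-06). Suz12, the scaffold subunit, stood at 86.9, 87.9, 90.5 and 87.0 CPM with TGF-β and at 77.0, 72.8, 75.3 and 73.8 CPM with chaetocin. Suz12 was thus lower in all 4 chaetocin libraries, as was Ezh1, while Ezh2 and Eed were higher. Its log2 fold change was -0.23 ± 0.03 (SE; edgeR adjusted p = 2.9e-07), and it shrank to -0.12 with total-count scaling (edgeR adjusted p = 0.00155). That scaling moved the median over all 14608 genes from 0.02 to 0.14.

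The core PRC2 subunits therefore did not move as a block. The count ratio of Ezh2 to Suz12 was 0.484 ± 0.0397 with TGF-β and 0.728 ± 0.0221 with chaetocin (SD, n = 4 per group), a 1.51-fold rise without overlap (exact permutation p = 0.0286, adjusted p = 0.0333). The ratio of Ezh2 to Eed was 0.996 ± 0.0774 and 1.06 ± 0.0355, with overlapping groups (exact permutation p = 0.171, adjusted p = 0.171). On FPKM that ratio rose from 0.610 ± 0.0453 to 0.693 ± 0.0172 (exact permutation test, adjusted p = 0.0286), so whether the pair shifted depends on the unit. Jarid2 stood at 30.9, 28.9, 33.2 and 30.6 CPM with TGF-β and at 38.0, 35.3, 35.1 and 33.3 CPM with chaetocin. Its groups came close without crossing, since the highest TGF-β library lay just under the lowest chaetocin library. The log2 fold change was 0.20 ± 0.05 (SE; edgeR adjusted p = 0.00106), and 0.32 with total-count scaling.

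Rnf2, the main ubiquitin ligase of PRC1, had the smallest adjusted p of the 9. It stood at 80.2, 77.6, 74.5 and 78.7 CPM with TGF-β and at 44.5, 43.6, 44.8 and 43.7 CPM with chaetocin. The lowest TGF-β library was far above the highest chaetocin library. The log2 fold change was -0.82 ± 0.04 (SE; edgeR adjusted p = 3.1e-17), and the level fell by 43.2%. Ring1, its paralog and alternative ligase, stood at 8.50, 11.7, 9.58 and 9.81 CPM with TGF-β and at 9.78, 9.33, 8.94 and 8.16 CPM with chaetocin. The groups overlapped, with a log2 fold change of -0.12 ± 0.10 (SE; edgeR adjusted p = 0.281), and -0.19 to -0.04 when single libraries were left out and -0.0035 with total-count scaling. With 128 to 229 counts per library, Ring1 was measured less precisely than Rnf2 with 671 to 1789, and a fall as large as that of Rnf2 would lie far outside its error.

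The count ratio of Rnf2 to Ring1 was 9.43, 6.63, 7.77 and 8.02 in the TGF-β libraries and 4.55, 4.68, 5.01 and 5.35 with chaetocin. It fell to 0.618 of its former value, without overlap (exact permutation p = 0.0286, adjusted p = 0.0333). Rnf2 remained the more abundant paralog in every library, at 5.14 ± 0.721 times Ring1 per length with TGF-β and 3.19 ± 0.240 times with chaetocin (FPKM; SD, n = 4).

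Bmi1, the PCGF subunit that was found as a Myc partner in lymphoma, stood at 58.7, 58.7, 59.9 and 66.3 CPM with TGF-β and at 43.1, 42.1, 42.3 and 44.0 CPM with chaetocin. Replicate 4 of the TGF-β group was the highest, and the groups were well apart. The log2 fold change was -0.51 ± 0.04 (SE; edgeR adjusted p = 3.7e-11), and without that replicate -0.47. On FPKM the groups overlapped, at 18.5 to 23.2 with TGF-β and 14.7 to 19.2 with chaetocin. Pcgf2, which encodes the closest relative of BMI1 and can take its place in PRC1, went up from 20.5 ± 1.77 to 47.4 ± 2.54 CPM (SD, n = 4; log2 fold change 1.21 ± 0.06 SE; edgeR adjusted p = 6.0e-17). Counts of Pcgf2 per count of Bmi1 were 0.355, 0.386, 0.337 and 0.278 with TGF-β and 1.09, 1.17, 1.04 and 1.12 with chaetocin. Bmi1 had more counts than Pcgf2 in each TGF-β library and fewer in each chaetocin library. The ratio rose 3.28-fold (exact permutation p = 0.0286, adjusted p = 0.0333). Per length it went from 0.594 ± 0.119 to 1.96 ± 0.161 (FPKM; SD, n = 4).

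Cbx7, a chromodomain subunit that reads the methyl mark, was the least abundant of the 9 with TGF-β and rose most. It stood at 5.51, 5.67, 6.12 and 5.15 CPM with TGF-β and at 10.98, 12.1, 9.87 and 12.4 CPM with chaetocin. Every chaetocin library was above every TGF-β library. The log2 fold change was 1.02 ± 0.10 (SE; edgeR adjusted p = 7.3e-10), a 2.02-fold rise on 110 to 257 counts per library. Cbx8 encodes a protein that can fill the same place, and it was at 6.24 ± 0.773 and 5.92 ± 0.612 CPM (SD, n = 4; edgeR adjusted p = 0.610). The count ratio of Cbx8 to Cbx7 went from 1.12 ± 0.192 to 0.527 ± 0.0758 (SD, n = 4), without overlap between groups (exact permutation p = 0.0286, adjusted p = 0.0333).

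**Figure D2:**
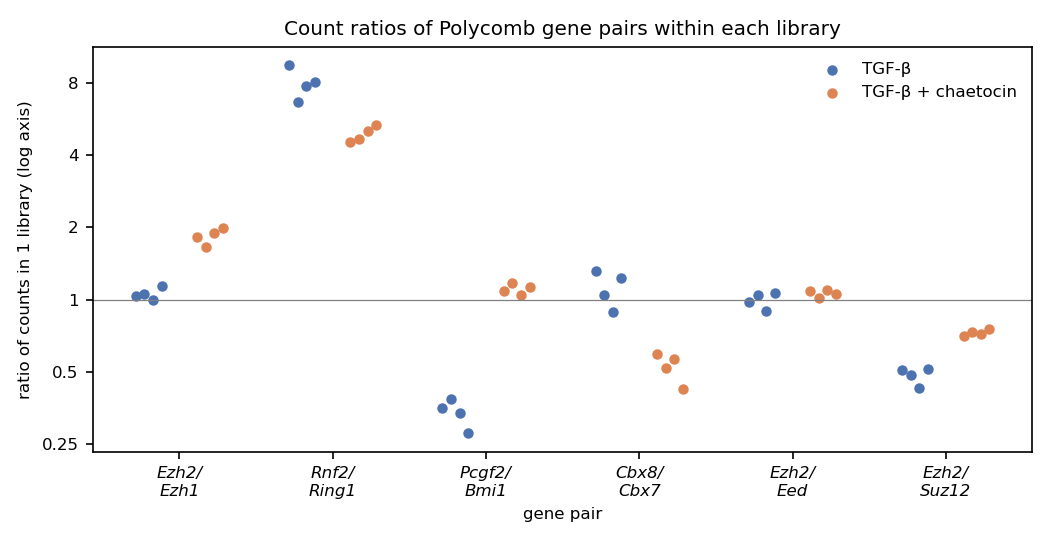
Count ratio of 6 gene pairs within each library (vertical axis, log scale; 1 point per library, blue TGF-β, orange TGF-β and chaetocin; the grey line is a ratio of 1). The groups are apart for 5 pairs, among them Pcgf2 to Bmi1, which crosses 1, and overlap for Ezh2 to Eed.

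Levels of different genes were compared per length, on the FPKM scale of the authors. With TGF-β alone the order from high to low was Eed (28.4 ± 1.93 FPKM; SD, n = 4), Rnf2, Bmi1, Suz12, Ezh2, Ezh1, Jarid2, Ring1 and Cbx7 (2.17 ± 0.360 FPKM). Libraries of neighbours overlapped between Rnf2 and Bmi1 and between Bmi1 and Suz12, so their order is not resolved. With chaetocin the order was Eed (35.6 ± 1.37 FPKM), Ezh2, Suz12, Bmi1, Rnf2, Jarid2, Ezh1, Cbx7 and Ring1 (4.62 ± 0.346 FPKM). Suz12 and Bmi1, Bmi1 and Rnf2, and Jarid2 and Ezh1 overlapped. By mean FPKM, Rnf2 went from the second place to the fifth and Ezh2 from the fifth to the second. Given the overlaps, the exact places of Rnf2 are not resolved. Nor is that of Ezh2 with TGF-β, since its highest library, at 18.57 FPKM, lay just above the lowest of Bmi1, at 18.53 FPKM. Eed was the highest in both groups.

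**Figure D3:**
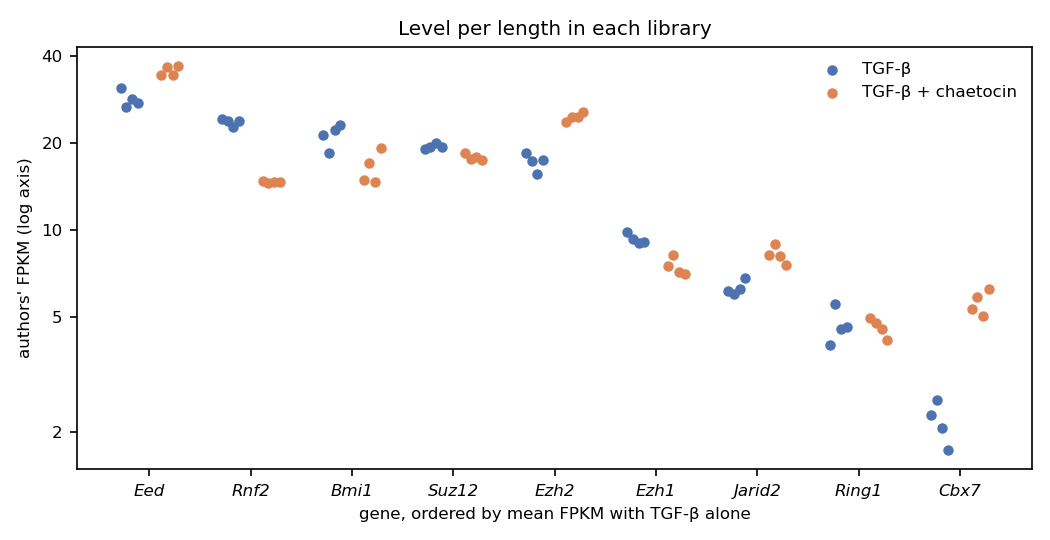
FPKM of the 9 genes in each library (vertical axis, log scale; 1 point per library, blue TGF-β, orange TGF-β and chaetocin), in the order of mean FPKM with TGF-β. Eed is highest in both groups, Rnf2 drops from 23.7 to 14.7 FPKM, and Cbx7 comes from 2.17 to 5.63 FPKM, above Ring1 at 4.62.

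The fold on FPKM was not the same as that of the TMM-scaled fit on counts for every gene. The log2 ratio of mean FPKM in the authors' deposited table was 1.37 for Cbx7, 0.51 for Ezh2, 0.38 for Jarid2, -0.12 for Suz12 and -0.69 for Rnf2. With total-count scaling the edgeR log2 fold changes on counts were 1.13, 0.47, 0.32, -0.12 and -0.70 in the same order. For each of these genes that value lay nearer to the FPKM ratio than the TMM-scaled one did. In the authors' deposited table all 9 have the sign of the fit on counts, and Ring1 alone has an FDR above 0.05. The gene length implied by count, total count and FPKM of 1 library was nearly constant for Ring1, at 2.03 to 2.04 kb. It ranged from 2.03 to 2.85 kb for Cbx7, from 2.38 to 3.05 kb for Bmi1 and from 4.09 to 5.12 kb for Jarid2. For Cbx7 it was 2.52 kb on average with TGF-β and 2.09 kb with chaetocin, and the larger rise on FPKM than with total-count scaling goes with that shift.

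The 9 genes lie on 8 chromosomes. On GRCm38 (GENCODE M21) Rnf2 is at chromosome 1, positions 151458004 to 151500955, Bmi1 at chromosome 2, 18677018 to 18686629, Ezh2 at chromosome 6, 47530139 to 47595341, and Eed at chromosome 7, 89954654 to 89980983. Ezh1 is at chromosome 11, 101191115 to 101226463, Suz12 at chromosome 11, 79993106 to 80034123, Jarid2 at chromosome 13, 44729474 to 44921643, Cbx7 at chromosome 15, 79915807 to 79971119, and Ring1 at chromosome 17, 34020792 to 34024680. All 9 are protein-coding. The exons of Ezh2, Eed, Suz12, Rnf2 and Cbx7 share 174, 261, 178, 158 and 100 bases with a gene on the opposite strand (Gm26625, E230029C05Rik, Gm26563, Trmt1l and Apobec3). No source used here says if strand was taken into account in counting, and reads in those bases cannot be assigned with certainty. Ezh1, Jarid2, Bmi1 and Ring1 share no exon base with another gene.

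The genes whose profile over the 8 libraries lay closest to that of Cbx7 were Slc4a8, Bmpr1b and Grb14, at Euclidean distances of 0.170, 0.177 and 0.177 log2 units among 9929 genes. Their log2 fold changes were 1.04, 1.04 and 1.05. Closest to Rnf2 were Plekha2, Etl4 and Map1b, at 0.0693, 0.0831 and 0.0887, with log2 fold changes of -0.82, -0.80 and -0.83. With 2 groups of libraries, such likeness mostly reflects an equal difference between the groups.

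The remaining subunits of both complexes were taken from lists of 9 PRC2 partners, 10 canonical PRC1 genes and 19 genes of variant PRC1, the forms that lack a CBX protein. Of these 38 genes, all tested, 14 rose, 18 fell and 6 were not called, with a median log2 fold change of -0.07 beside 0.02 for all tested genes. The shares over all tested genes were 42.0% called higher and 38.8% lower. Under total-count scaling 17 of the 38 rose and 12 fell, beside 49.2% and 30.9% of all tested genes. The genes that moved most belonged to different forms of the complexes. Among PRC2 partners 4 rose and 5 fell, under total-count scaling 4 and 3. Epop, which limits PRC2 activity, rose from 6.44 ± 0.913 to 14.2 ± 0.190 CPM (SD, n = 4), and Lcor, whose locus also encodes a PRC2 accessory protein, from 31.1 ± 1.64 to 56.3 ± 2.80 CPM. Lcorl had a log2 fold change of -0.50 and the DNA-binding cofactor gene Aebp2 one of -0.19.

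Among canonical PRC1 genes 4 rose and 4 fell, under total-count scaling 4 and 2. Beside Pcgf2, Scml2 rose from 20 to 100 summed counts, a log2 fold change of 2.55 ± 0.34 (SE; edgeR adjusted p = 1.5e-07). With 2 to 8 counts per TGF-β library against 19 to 36 with chaetocin, Scml2 passed the count filter only through the chaetocin libraries. Only a rise could thus be called for it, and it is among the 4 rises. Phc1, a polyhomeotic subunit that lets PRC1 polymerise, fell from 36.3 ± 0.986 to 18.4 ± 1.32 CPM (SD, n = 4), and its abundant relative Phc2 had a log2 fold change of -0.17, which was not called with total-count scaling (-0.05; edgeR adjusted p = 0.0738). Among variant PRC1 genes 6 rose and 9 fell, under total-count scaling 9 and 7. Bcor, the corepressor of the PCGF1 form, rose from 48.7 ± 2.50 to 156.7 ± 8.37 CPM (SD, n = 4; log2 fold change 1.69), and Fbrs rose by 0.66. Pcgf3 fell from 226.5 ± 4.42 to 159.5 ± 2.78 CPM (SD, n = 4), and Dcaf7 had a log2 fold change of -0.24.

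Of 10 genes for enzymes that remove the Polycomb marks, or their cofactors, 3 rose and 6 fell (under total-count scaling 3 and 5). Among all tested genes 42.0% were called higher and 38.8% lower by the main test. The demethylase genes for the PRC2 mark went apart. Kdm6b rose from 79.3 ± 2.86 to 221.5 ± 10.005 CPM (SD, n = 4; log2 fold change 1.48; edgeR adjusted p = 2.8e-24), and Kdm6a fell from 55.6 ± 1.28 to 32.0 ± 2.31 CPM (log2 fold change -0.80; edgeR adjusted p = 8.0e-15). Asxl3, a cofactor gene of the H2A deubiquitinase, rose by 0.52 at a level of 2.06 CPM with TGF-β. Uty, the Y-linked relative of Kdm6a, changed by -0.71 on the log2 scale.

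**Figure D4:**
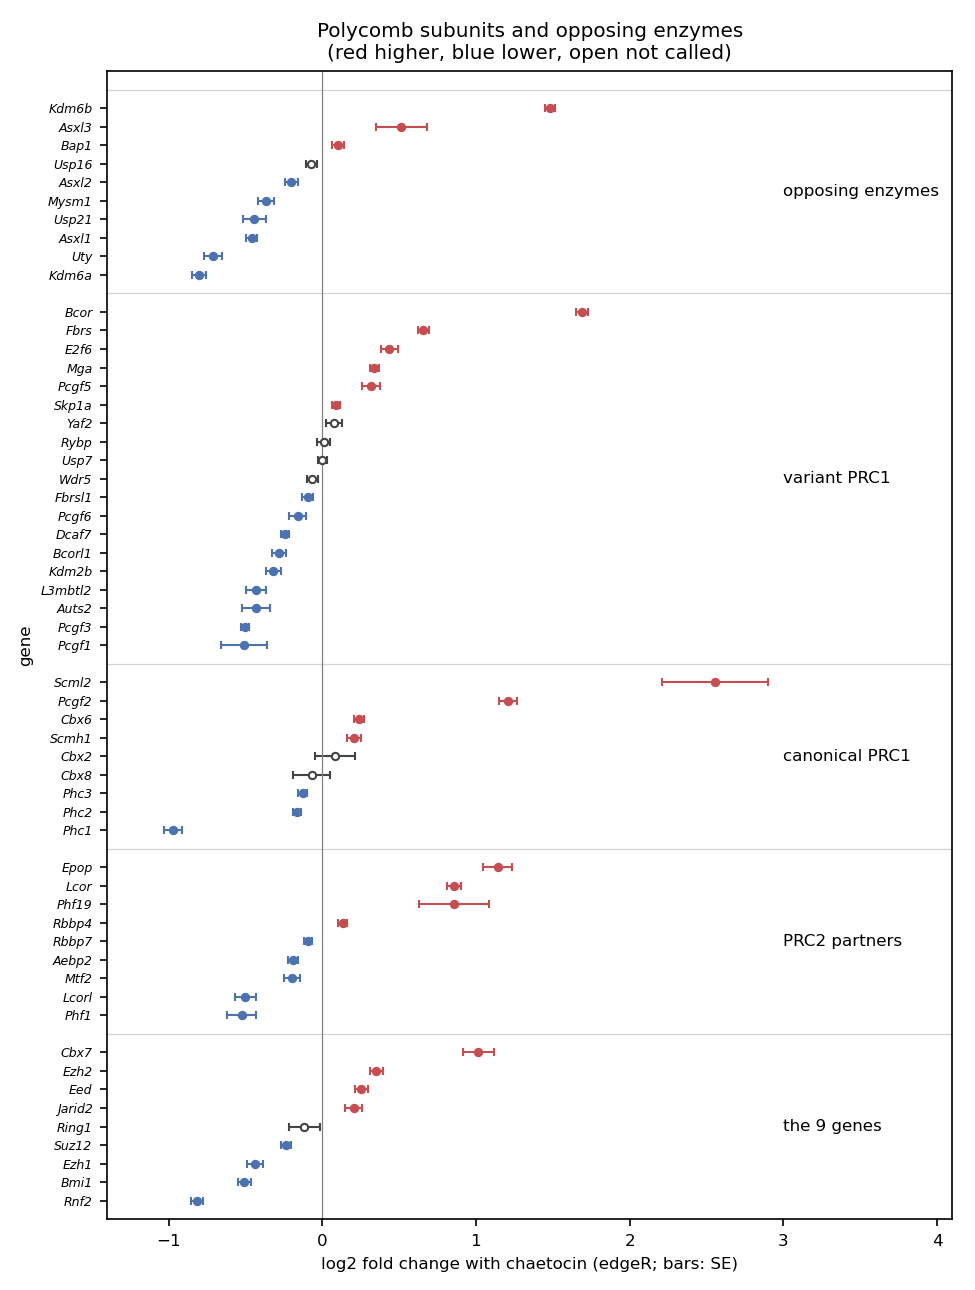
Log2 fold change with chaetocin (horizontal axis; points with SE bars from edgeR) of the 9 genes, 37 of the 38 remaining subunit genes and 10 opposing enzyme genes, grouped by list; red points were called higher, blue lower, open points not called. Rises and falls are mixed in every group. Scml2 at 2.55, Bcor at 1.69, Kdm6b at 1.48, Pcgf2 at 1.21 and Epop at 1.14 lie farther from 0 than all 9 genes.

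Proliferation genes moved together in the same libraries. All 20 were called higher with chaetocin by edgeR, beside 42.0% of all tested genes. Their median log2 fold change was 0.78, and their summed level was 445 to 463 CPM with TGF-β against 773 to 799 CPM with chaetocin. Mcm3, a subunit of the replicative helicase, rose by 1.20 and the cyclin gene Ccne2 by 2.68. Ezh2, at 0.35, and Eed, at 0.25, rose less than the median of that list, and Suz12 fell. The part of proliferation in the changes of the 9 genes was not tested.

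Genes commonly described as Polycomb targets were listed as a further readout. This list too was chosen with earlier results of these data known, so it is not an independent check. The list has 40 members, of which 19 passed the count filter. Beside 42.0% of all tested genes called higher and 38.8% lower, 11 of the 19 rose and 4 fell. A gene that was silent with TGF-β could pass only by being counted with chaetocin, so these counts favour rises. The 4 that fell were the most abundant of the list with TGF-β. The cell cycle inhibitor genes Cdkn2a and Cdkn2b fell from 50.4 ± 2.31 to 24.4 ± 0.882 CPM and from 115.9 ± 1.86 to 41.7 ± 0.892 CPM (SD, n = 4; log2 fold changes -1.04 and -1.47). Pax2 and Emx2, transcription factor genes of the embryonic kidney, had log2 fold changes of -0.63 and -0.80 and are named after their values were seen.

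The rises were in genes less abundant with TGF-β than the 4 that fell. Tbx3 rose from 1.16 ± 0.198 to 6.93 ± 0.656 CPM (SD, n = 4; log2 fold change 2.57 ± 0.16 SE; edgeR adjusted p = 3.1e-14). Dlx1, a homeobox gene of the forebrain and jaw, went from 7 summed counts to 289, and Dlx2, its neighbour in the genome, named after its values were seen, had 11 and 173. The 21 members below the filter had 72 counts in all with TGF-β and 348 with chaetocin, with at most 19 in any library. Of the 40 genes, 14 had no count in any TGF-β library, and each of the 14 had at least 1 count with chaetocin. In the whole table this held for 2622 of 5288 genes without a count in TGF-β libraries, or 49.6%. The median summed count of the 14 genes with chaetocin was 7.5, so most remained near the limit of detection.

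**Figure D5:**
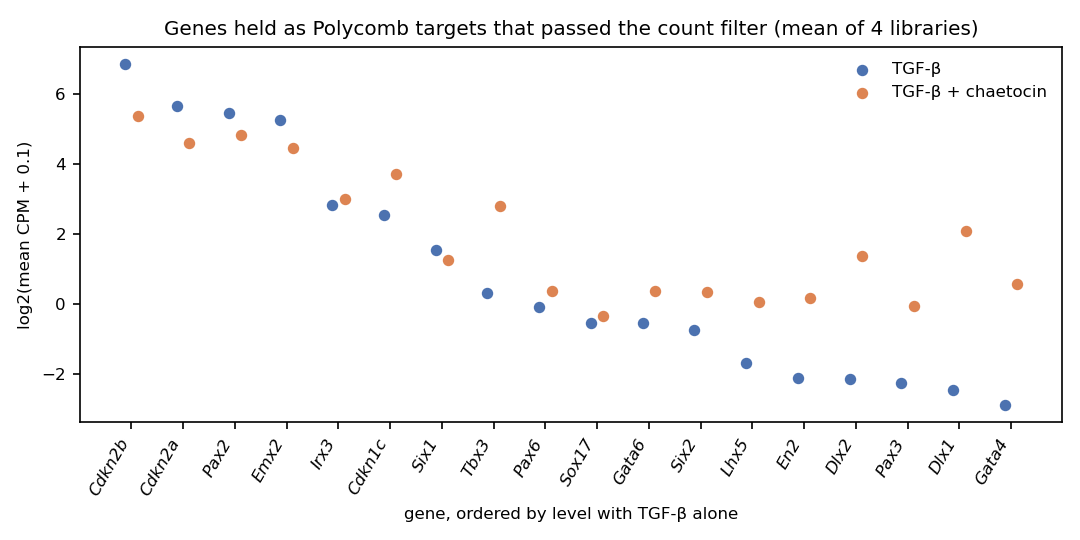
Mean level, as log2(CPM + 0.1), of 18 of the 19 genes of the Polycomb target list that passed the count filter (blue TGF-β, orange TGF-β and chaetocin; each point is the mean of 4 libraries), in the order of the TGF-β level. The 4 most abundant genes, Cdkn2b, Cdkn2a, Pax2 and Emx2, are lower with chaetocin, and most genes at the right are higher.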

How the data were processed

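The authors' table holds, per the file headers, counts and FPKM by gene and library, their mean FPKM per group, the log2 ratio of these means, and a p-value and FDR from an unnamed test. The build was GRCm38 (mm10) per the submitters' processing notes, and libraries were made from column-purified RNA with a SMARTER kit per the labels' protocols. The aligner, the counter and the annotation: not given in the sources used here. Replicates differed by more than sampling noise (mean chi-square per gene 2.01 to 2.53). The deposited counts were tested with edgeR 4.0.16 in R 4.3.3 (filterByExpr, TMM, quasi-likelihood F test, Benjamini-Hochberg over 14608 genes), checked on simulated data. The SE is the log2 fold change divided by the square root of F. The deposited FPKM values were used for levels per length and, with limma 3.58.1, as an alternative. 0 columns of other samples were present. Skp1a was matched by gene ID. Of the 7 pairs tested 1 is not reported here, nor are 2 genes of the lists, which the list counts and p adjustments include.

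The members and lists were chosen with earlier results of these data known. Genes named are the 9 members, genes of the ratio pairs and, per list, up to 2 called genes with the smallest p in each direction. The genes most like the largest rise and fall were those of mean log2 CPM of at least 3 with the smallest distance between log2 CPM profiles. Alternatives were other scalings and filters, limma-voom, DESeq2 1.42.0, limma on FPKM (pseudocounts 1 and 0.1, with a floor of FPKM above 1 in 4 libraries or none), the replicate block and leaving out each library.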

Additional observations from a re-analysis of the deposited data

Results flagged for a closer look

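The gap between 1 library and its group was tested in 48 sets of 4 values (CPM, FPKM and count ratios), where chance flags about 1 in 20. Bmi1 stood at 66.3 CPM in replicate 4 of the TGF-β group and at 58.7 to 59.9 CPM in the other 3 libraries. That library did not cross into the range of the other treatment.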

How the results depend on the processing

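For the 9 genes, the direction and the side of the threshold were the same under all 18 alternatives, leave-one-out included, and 4 genes were called higher and 4 lower in each. The ratio of Ezh2 to Eed passed the threshold on FPKM, with a log2 difference of 0.19 against 0.10 on counts. Some counts of calls moved by over 1.5 times. Of 47 subunit genes, 22 were called lower by the main test and 13 to 14 with limma on FPKM. PRC2 partners called lower were 5, against 3 with total-count scaling and 2 on FPKM, canonical PRC1 genes 4 against 2 on both, and variant PRC1 genes 9 against 5 on log2(FPKM + 0.1) and on unfiltered FPKM. Target genes called higher were 11, against 22 without a filter by either tool, 6 with at least 1 CPM in 4 libraries and 4 on filtered FPKM, where fewer silent genes were tested. Same-numbered libraries correlated by 0.0016 to 0.10 in their deviations from the group means and are not treated as pairs. With the replicate block the log2 fold changes were -0.44 for Ezh1, 0.35 for Ezh2, -0.82 for Rnf2 and 1.01 for Cbx7, with no call changed, and 6105 genes were called higher and 5643 lower. A sign-flip test over 4 pairs cannot give p under 0.125. Ring1 and Cbx7, with 110 to 257 counts per library, were measured least precisely.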
